A study of Mus musculus with 6 samples.

Results

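S100a8, S100a9, Retnlg, Stfa2l1, G0s2, Csf3r, Cxcr2 and Trem1 are 8 mouse genes usually counted among the products of mature neutrophils and the alarmins, proteins that signal tissue damage when released. They were taken by their symbols from the 24047 gene rows of the deposited count table, and each was followed in all 6 libraries separately. The genes were chosen with the values of these libraries known, because kidney replicate 22 differed from kidney replicates 7 and 8 in some of them. Their levels and fold changes are therefore given as a description. Where a fit across all genes called any of them, the calls are counted beside the share called among all genes and nothing is read from them.

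The study sequenced RNA from monocytes of wild-type mice, strain label C5/Bl6, in which nephrotoxic nephritis had been induced, an injury of the glomeruli driven by antibodies. Labels put the mice at 8 to 10 weeks of age, 10 in number, and they were killed on day 13. The kidney group (replicates 7, 8 and 22) held sorted cells labelled double_pos, enriched beforehand with a commercial monocyte kit. The comparison group (replicates 2, 24 and 26) held cells from spleen and bone marrow labelled double. The markers behind these names are not given, and isolation is described for the renal cells alone. All 6 libraries came from nephritic mice, so there was no healthy group, and the labels leave unsaid whether a replicate is 1 animal or a pool. P-values thus reflect the spread between libraries alone, and that spread may be technical.

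S100A8 and S100A9 are small calcium-binding proteins that pair as calprotectin, which neutrophils and classical monocytes hold in the cytosol in large amounts. Released from stressed or dying cells, the pair is sensed by pattern recognition receptors such as TLR4. Csf3r and Cxcr2 encode the receptors through which neutrophils are produced, released from marrow and drawn to inflamed tissue, and Trem1 encodes a surface receptor that amplifies inflammatory signalling in neutrophils and monocytes. Retnlg and Stfa2l1 encode a resistin-like secreted protein and a stefin-like inhibitor of cysteine proteases, and G0s2 encodes an inhibitor of fat breakdown.

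S100a8 and S100a9 lie next to each other on chromosome 3, with S100a7a before them and Pglyrp4 after them in the order of protein-coding genes. Their promoters are shown because these genes had the most similar profiles of any pair among the 8, and that of Csf3r because it alone among the 8 had its lowest level of all 6 libraries in kidney replicate 22. Each sequence is the RefSeq promoter of the GRCm38.p6 assembly, 300 bases long, written 5′ to 3′ on the strand of the gene. Capitals mark matches, on either strand, to TATAAA (the TATA box), TTNNGNAA (a loose C/EBP-type pattern) and GAGGAA (a PU.1-type pattern, TTCCTC on the other strand). In S100a8 a TTCCTC ends where TATAAA begins, so both run on as 1 stretch of capitals. The S100a8 window is chr3:90668821-90669120 on the plus strand, the S100a9 window chr3:90695672-90695971 on the minus strand and the Csf3r window chr4:126024409-126024708 on the plus strand.
S100a8: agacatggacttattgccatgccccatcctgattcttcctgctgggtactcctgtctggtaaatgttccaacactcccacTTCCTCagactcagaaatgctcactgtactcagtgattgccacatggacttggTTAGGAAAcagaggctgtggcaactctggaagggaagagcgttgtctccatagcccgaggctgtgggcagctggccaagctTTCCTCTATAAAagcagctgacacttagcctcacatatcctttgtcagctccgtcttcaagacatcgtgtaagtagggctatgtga
S100a9: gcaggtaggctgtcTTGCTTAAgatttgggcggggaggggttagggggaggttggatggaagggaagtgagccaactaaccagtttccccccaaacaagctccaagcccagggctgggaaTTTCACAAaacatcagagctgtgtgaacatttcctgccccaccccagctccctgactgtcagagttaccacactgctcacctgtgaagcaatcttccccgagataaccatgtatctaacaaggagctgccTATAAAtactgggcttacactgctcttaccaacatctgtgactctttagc
Csf3r: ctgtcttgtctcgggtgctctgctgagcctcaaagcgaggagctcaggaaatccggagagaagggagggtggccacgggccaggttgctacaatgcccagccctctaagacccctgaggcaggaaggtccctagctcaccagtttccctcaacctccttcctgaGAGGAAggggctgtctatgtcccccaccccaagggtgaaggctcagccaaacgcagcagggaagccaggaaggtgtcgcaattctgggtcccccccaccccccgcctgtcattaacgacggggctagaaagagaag

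TATAAA was present in 2 of the 8 promoters, S100a8 and S100a9, and in 13.6% of 32851 RefSeq promoters of the same length. In S100a8 it began 30 bases before the annotated start, and in S100a9 at base 1 of the annotated transcript. The C/EBP-type pattern occurred in 5 of the 8 promoters against 40.7% of all, and the PU.1-type pattern in 5 of the 8 against 28.3% of all. The G0s2 window held none of the 3 patterns. These matches describe letters in a window and show nothing about binding.

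Levels are given as CPM, counts scaled to a common library total after adjustment by edgeR's TMM method. Library totals were 7938223, 7824387 and 3492391 counts in kidney replicates 7, 8 and 22, and 8925781, 7311991 and 9727489 counts in spleen and marrow replicates 2, 24 and 26. Kidney replicate 22 was the shallowest, and 3 counts there equal 0.881 CPM, against at most 0.41 CPM in any other library. All 14 monocyte markers examined had counts in every library. Over all genes, kidney replicate 22 differed more from kidney replicates 7 and 8 (chi-square of 59.7 and 54.9 per degree of freedom) than those did from each other (39.3), and results are given with and without it. The 8 genes all had counts in every library too, and all 8 passed the filter on low counts.

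S100a8 had 531, 1682 and 16137 CPM in kidney replicates 7, 8 and 22, against 9919, 11797 and 12055 CPM in spleen and marrow replicates 2, 24 and 26. S100a9 had 305, 1435 and 13363 CPM in the kidney libraries, against 6804, 8268 and 8548 CPM in spleen and marrow in the same order. For both genes kidney replicate 22 stood above all 3 spleen and marrow libraries and kidney replicates 7 and 8 below all 3, so the groups overlapped. S100a8 averaged 6117 ± 8697 CPM in kidney, against 11257 ± 1166 CPM in spleen and marrow, and S100a9 5034 ± 7235 and 7873 ± 937 CPM (SD, n = 3 each). The kidney SD exceeded the kidney mean for both. In bulk samples such as these, more cells of a type and more RNA per cell cannot be told apart.

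Kidney replicate 22 held 30.4 times the S100a8 level of kidney replicate 7 (95% exact binomial interval 29.5 to 31.3) and 9.59 times that of kidney replicate 8 (9.42 to 9.78). For S100a9 these ratios were 43.8 (42.1 to 45.6) and 9.31 (9.12 to 9.51). Kidney replicates 8 and 7 also differed from each other, by 3.17 times for S100a8 and 4.70 times for S100a9. The intervals cover counting error only, because the reads carry no molecular identifiers, and say nothing of the spread between animals or preparations. Across the 3 spleen and marrow libraries the highest level was 1.22 times the lowest for S100a8 and 1.26 times for S100a9. The alarmin pair was therefore spread over more than a factor of 10 within the kidney group and was nearly level within the other.

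Together S100a8 and S100a9 took 0.0889%, 0.315% and 2.88% of all counts in kidney replicates 7, 8 and 22, against 1.63%, 2.01% and 1.98% in spleen and marrow replicates 2, 24 and 26. The 95% Wilson interval for kidney replicate 22 was 2.86% to 2.89%. By count, S100a8 was the gene in place 239, 51 and 4 of the kidney libraries, against place 6, 3 and 3 in spleen and marrow. The pair made up 88.7%, 94.2% and 99.1% of the counts of the 8 genes in kidney and 98.8% to 99.2% in spleen and marrow. Any sum over the 8 genes is for that reason almost entirely a sum of these 2 genes.

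The proportion of S100a9 to S100a8 counts was 0.575 in kidney replicate 7 (0.548 to 0.604), 0.853 in kidney replicate 8 (0.832 to 0.875) and 0.828 in kidney replicate 22 (0.818 to 0.838). The 3 values of spleen and marrow were 0.686, 0.701 and 0.709. Kidney replicate 7 thus lay below, and kidney replicates 8 and 22 above, the narrow range of the other group, by more than counting error.

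**Figure D1:**
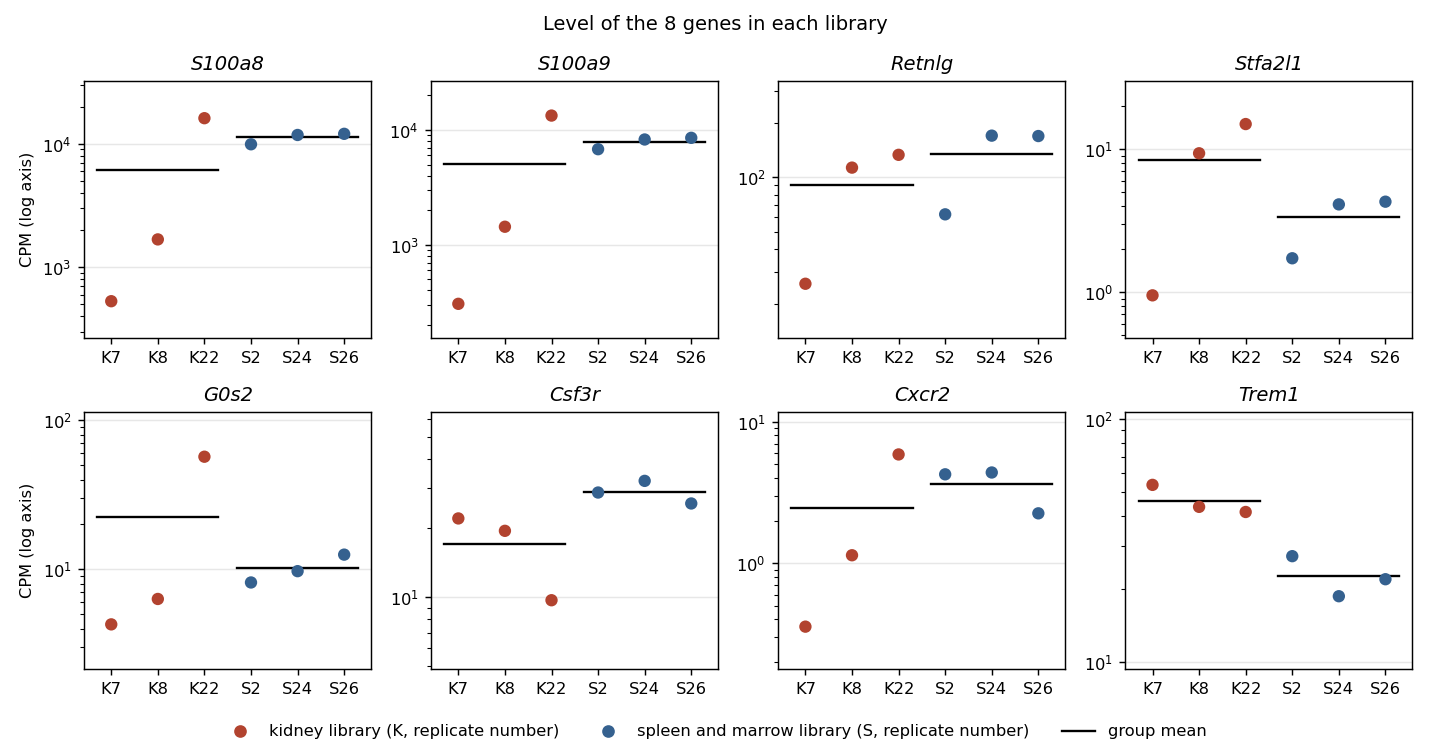
CPM of each of the 8 genes (vertical log axes, 1 panel per gene with its own scale) in kidney replicates 7, 8 and 22 (K7, K8, K22) and spleen and marrow replicates 2, 24 and 26 (S2, S24, S26), with a black line at each group's mean. S100a8, S100a9, G0s2 and Cxcr2 stand highest in K22, Csf3r is lowest there, and Trem1 lies between 41.4 and 53.6 CPM in kidney, above the 18.6 to 27.2 CPM of spleen and marrow.

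Retnlg, the resistin-like gene, had 25.8, 113 and 133 CPM in kidney replicates 7, 8 and 22, against 62.4, 169 and 168 CPM in spleen and marrow replicates 2, 24 and 26. It was low in 1 library of each group, and the groups overlapped. In kidney replicate 22 it was 5.14 times its level in kidney replicate 7 (4.36 to 6.07) and 1.18 times its level in kidney replicate 8 (1.05 to 1.32). The kidney mean was 90.5 ± 56.9 CPM and the spleen and marrow mean 133 ± 61.5 CPM (SD, n = 3 each). Retn, the gene of resistin itself, stayed at or below 0.632 CPM in all 6 libraries.

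Stfa2l1, the stefin-like gene, had 0.948, 9.35 and 14.98 CPM in the kidney libraries, against 1.72, 4.10 and 4.29 CPM in spleen and marrow. These values rest on 8, 74 and 51 counts in kidney and 15, 30 and 40 counts in spleen and marrow. Kidney replicates 8 and 22 were above every spleen and marrow library and kidney replicate 7 below every one. Unlike the alarmin pair, kidney replicate 22 exceeded kidney replicate 8 by only 1.60 times (1.10 to 2.32), while kidney replicate 8 exceeded kidney replicate 7 by 9.86 times (4.75 to 23.7). Of the 370 windows of 50 bases in its annotated transcript, 91 (24.6%) also occur in transcripts of other genes, 62 of them in Stfa2, so its counts are uncertain.

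Stfa1, another stefin A gene, had 3.44, 17.7 and 34.4 CPM in kidney, against 4.82, 14.2 and 14.5 CPM in spleen and marrow. None of the 4 tested stefin A genes other than Stfa2l1 passed in edgeR, in DESeq2 or in limma-voom, and none had an unadjusted p under 0.05 in edgeR. Stfa1 and BC100530, the most abundant of them, reached an edgeR adjusted p of 0.603 and 0.649.

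G0s2, the inhibitor of adipose triglyceride lipase, had 4.27, 6.32 and 57.0 CPM in kidney replicates 7, 8 and 22, against 8.15, 9.71 and 12.5 CPM in spleen and marrow replicates 2, 24 and 26. Kidney replicate 22 was far above every other library, while kidney replicates 7 and 8 were below all 3 of spleen and marrow. The ratio of kidney replicate 22 was 13.4 to kidney replicate 7 (9.32 to 19.6), 9.02 to kidney replicate 8 (6.58 to 12.6) and 5.62 to the spleen and marrow mean. Kidney replicates 7 and 8 did not differ beyond counting error, at a ratio of 1.48 (0.946 to 2.34).

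The fitted direction of G0s2 rested on that library. Its log2 fold change, kidney over spleen and marrow, was 1.11 ± 0.90 (SE) with all libraries and -0.96 without kidney replicate 22. With limma-voom on all libraries it was -0.26.

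Of the 4 genes listed around G0s2, 1 fell in kidney, beside 5.9% of all tested genes. This was Abhd5, the co-activator of the lipase, at 23.96 ± 6.63 CPM against 46.7 ± 1.51 CPM (log2 fold change -0.97 ± 0.24, edgeR adjusted p = 0.0327). That call was kept in 1 of the 6 fits that left out a library, the one without kidney replicate 22, with adjusted p up to 0.128 in the other fits. Pnpla2, the lipase that G0S2 inhibits, had 51.3 ± 7.83 CPM in kidney, against 45.1 ± 8.38 CPM in spleen and marrow (SD, n = 3 each, edgeR adjusted p = 0.617).

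Csf3r, the receptor of granulocyte colony-stimulating factor, had 22.04, 19.5 and 9.69 CPM in kidney replicates 7, 8 and 22, against 28.6, 32.1 and 25.6 CPM in spleen and marrow replicates 2, 24 and 26. All 3 kidney libraries were below all 3 spleen and marrow libraries, which was also the case for 18.8% of all tested genes. Kidney replicate 22, the library highest in S100a8, was the lowest in Csf3r, at 0.440 times kidney replicate 7 (0.294 to 0.639) and 0.498 times kidney replicate 8 (0.331 to 0.729). It held 33 counts there. The means were 17.1 ± 6.52 CPM in kidney, against 28.8 ± 3.27 CPM in spleen and marrow (SD, n = 3 each). Of its transcript windows 10.5% are shared with other annotated genes.

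Around this receptor, 1 of 8 tested genes rose and 0 fell, near the background of 7.83% higher and 5.9% lower among all tested genes. The gene that rose was Socs3, the feedback inhibitor of cytokine receptor signalling, at 140 ± 64.0 CPM in kidney, against 32.65 ± 6.48 CPM in spleen and marrow (log2 fold change 2.11 ± 0.37, edgeR adjusted p = 0.0103). Without spleen and marrow replicate 2, 24 or 26 no gene of the list passed, and Socs3 then had an adjusted p of up to 0.0686, nor did any on the FPKM scales. Without kidney replicate 22, 2 of 9 tested genes of the list rose, beside 14.3% of all tested genes in that fit. Csf3, the ligand gene, was at or below 0.758 CPM in every library and was not tested.

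Cxcr2, the receptor for CXC chemokines that draws neutrophils into tissue, had 0.356, 1.14 and 5.87 CPM in kidney replicates 7, 8 and 22, against 4.25, 4.38 and 2.25 CPM in spleen and marrow replicates 2, 24 and 26. The kidney values rest on 3, 9 and 20 counts and the others on 37, 32 and 21. Kidney replicate 22 was the highest of all 6 libraries and kidney replicate 7 the lowest, with 3 counts. The ratio of kidney replicate 22 was 16.5 to kidney replicate 7, with an interval from 4.90 to 86.8, and 5.16 to kidney replicate 8 (2.25 to 12.9). Cxcr1, the neighbouring receptor gene on chromosome 1, had no count in any library. Of the Cxcr2 transcript windows 4.01% are shared with other genes.

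Of 4 tested ligand genes of CXCR2, 2 rose in kidney, beside 7.83% of all tested genes. The other tested ligand genes, Cxcl1 and Cxcl2, had an edgeR adjusted p of 0.710 and 0.867. Cxcl3 passed the filter on low counts only with the kidney libraries, where it was high, so nothing is read from its call. Cxcl3 had 16.5, 7.96 and 54.0 CPM in kidney replicates 7, 8 and 22, against 1.84, 0 and 0.429 CPM in spleen and marrow (log2 fold change 5.03 ± 1.09, edgeR adjusted p = 0.0216). Ppbp, which platelets also hold, had 5.81, 18.1 and 13.5 CPM in kidney, against 1.72, 2.33 and 2.68 CPM in spleen and marrow (log2 fold change 2.46 ± 0.52, edgeR adjusted p = 0.0190). Both calls were lost without spleen and marrow replicate 2, 24 or 26, at adjusted p up to 0.120, and with limma-voom. The Ppbp call was also lost without kidney replicate 8, and the Cxcl3 call on both FPKM scales. Summed over 9 platelet genes that include Ppbp, the level was 300 to 435 CPM in kidney, against 6.55 to 10.4 CPM in spleen and marrow, and the part of this in Ppbp was not tested.

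Trem1 had 53.6, 43.5 and 41.4 CPM in kidney replicates 7, 8 and 22, against 27.2, 18.6 and 21.9 CPM in spleen and marrow replicates 2, 24 and 26. All 3 kidney libraries were above all 3 others, as were those of 19.2% of all tested genes. Of the 8 genes it varied least within kidney, where the highest library was 1.29 times the lowest. Kidney replicate 22 was 0.773 times kidney replicate 7 (0.635 to 0.936) and 0.953 times kidney replicate 8 (0.777 to 1.16). The means were 46.1 ± 6.51 CPM in kidney, against 22.6 ± 4.35 CPM in spleen and marrow (SD, n = 3 each). The fitted log2 fold change was 1.03 ± 0.23 (SE).

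Of 8 tested partners and relatives of TREM1, 2 rose and 1 fell, beside 7.83% and 5.9% of all tested genes. Trem2, a lipid-sensing receptor of macrophages, rose to 372 ± 61.0 CPM in kidney, against 137 ± 7.84 CPM in spleen and marrow (log2 fold change 1.44 ± 0.16, edgeR adjusted p = 0.00157), and passed in all 6 fits that left out a library. Treml4 rose with a log2 fold change of 1.28 ± 0.24 and Treml2 fell with one of -1.11 ± 0.31 (edgeR adjusted p = 0.0129 and 0.0498). The Treml4 call was lost on the FPKM scales and without spleen and marrow replicate 2, 24 or 26, at adjusted p up to 0.0820. Among fits that left out a library, the Treml2 call was kept only without kidney replicate 22, and its adjusted p reached 0.210. Without that library, 3 of 9 tested genes of this list rose and 3 fell, beside 14.3% and 11.1% of all tested genes. Scaling by library size alone also ended the Treml2 call. Tyrobp, the adaptor through which TREM1 signals, had 5673 ± 460 CPM in kidney, against 6058 ± 570 CPM in spleen and marrow (edgeR adjusted p = 0.663). Pglyrp1, a reported ligand of TREM1, had 10.2, 16.9 and 90.2 CPM in kidney replicates 7, 8 and 22, against 70.3, 69.8 and 78.8 CPM in spleen and marrow, so it was highest in kidney replicate 22 as the alarmin pair was.

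**Figure D2:**
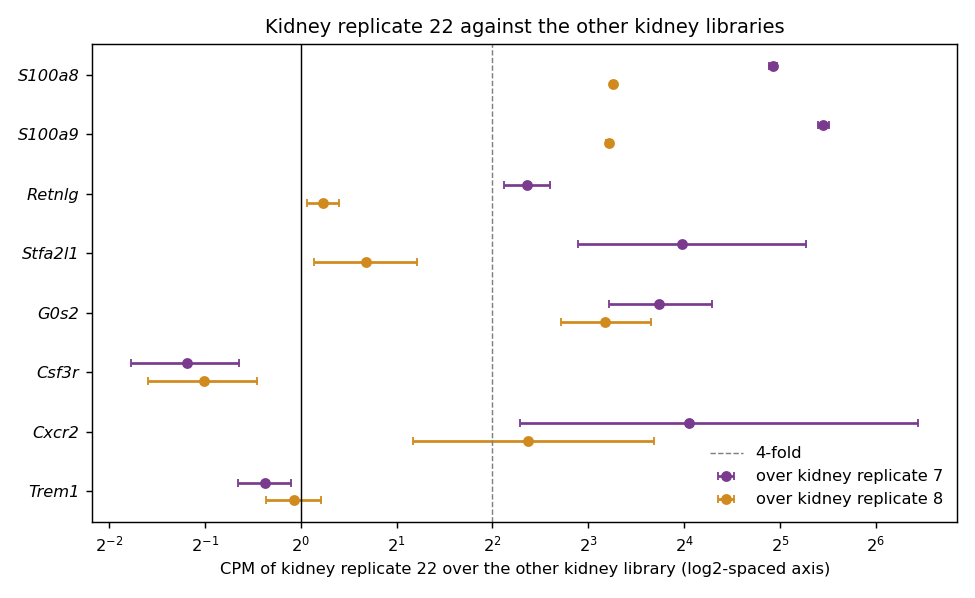
CPM of kidney replicate 22 divided by that of kidney replicate 7 (purple) and of kidney replicate 8 (orange) for each of the 8 genes, on a log2-spaced axis, with 95% exact binomial intervals that cover counting error only. The dashed line marks 4-fold, which S100a8, S100a9, G0s2 and Cxcr2 pass against both libraries, while Csf3r lies to the left of 1 against both.

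By this measure the 8 genes fell into different patterns rather than one. Kidney replicate 22 was at least 4-fold over both other kidney libraries in 4 of the 8 genes, S100a8, S100a9, G0s2 and Cxcr2. Among all 10626 tested genes that share was 2.27%, and the 8 genes were chosen on these values. Retnlg and Stfa2l1 were instead low in kidney replicate 7 and near each other in kidney replicates 8 and 22. Trem1 was nearly level in kidney, and Csf3r was lowest in kidney replicate 22. None of the 8 was at least 4-fold under both other kidney libraries there, as 10.7% of all tested genes were. Kidney replicate 22 was the highest kidney library for 6 of the 8, and kidney replicate 7 the lowest for 6 of the 8.

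Profiles of log2(CPM + 0.5) over the 6 libraries, each centred on its own mean, were compared pair by pair as a description. The root mean square difference was 0.188 log2 units between S100a8 and S100a9, the smallest of all pairs, and 2.32 between S100a9 and Trem1, the greatest. Over all 6 libraries the 4 genes high in kidney replicate 22 paired off by this measure. S100a8 and S100a9 were nearest each other among the 8, and so were G0s2 and Cxcr2 (0.798). Between these pairs the differences were larger than to some other genes of the 8. G0s2 was nearer to Stfa2l1 (0.852) than to S100a8 (1.29), and Cxcr2 nearer to Retnlg (0.830) than to S100a8 (0.924). The measure depends on the size of differences between libraries, and the added 0.5 narrows these for genes with few counts, such as Cxcr2. Against the mean profile of the 8 genes, Cxcr2 was nearest at 0.399 and Trem1 farthest at 1.22. The name of mature neutrophil and alarmin genes thus covers several profiles here, and the genes are described singly.

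The shares, places and proportion given above for the alarmin pair are of counts and so depend on transcript length as well as on level. Levels per length are in the deposited FPKM values. In FPKM, S100a8 came first, S100a9 next and Retnlg after it in all 6 libraries, and Cxcr2 last in all 6. S100a8 had 1270, 4129 and 28077 FPKM in kidney replicates 7, 8 and 22, against 22993, 27850 and 28225 FPKM in spleen and marrow replicates 2, 24 and 26. Retnlg had 29.9, 135 and 111 FPKM in kidney, against 71.7, 201 and 198 FPKM in spleen and marrow. Cxcr2 had 0.0640, 0.156 and 0.522 FPKM in kidney and 0.527, 0.564 and 0.298 FPKM in spleen and marrow. The places between these moved by library, with Trem1 in place 4 in kidney replicate 7 and place 7 in spleen and marrow replicates 24 and 26. In FPKM kidney replicate 22 stood above spleen and marrow replicates 2 and 24 in S100a8 and just below replicate 26, where in CPM it was above all 3. No FPKM value of the 8 genes was listed at 0.

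A fit across all tested genes (edgeR quasi-likelihood test, Benjamini-Hochberg adjusted p under 0.05) called 832 of 10626 genes higher in kidney, 7.83%, and 627 lower, 5.9%. Among the 8 genes it called 1 higher, Trem1, and 0 lower, and Trem1 was also the only one with an unadjusted p under 0.05. DESeq2 and limma-voom likewise called 1 higher and 0 lower. The call of Trem1 was kept without kidney replicate 8 or 22 and lost when kidney replicate 7 or 1 library of spleen and marrow was left out. Since these fold changes helped to choose the genes, nothing is read from the calls.

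The median log2 fold change of the 8 genes was -0.61, beside 0.05 over all tested genes. Fold changes were -0.88 ± 1.001 for S100a8, -0.65 ± 1.05 for S100a9, -0.57 ± 0.59 for Retnlg, -0.74 ± 0.32 for Csf3r and -0.68 ± 0.93 for Cxcr2 (SE). For Stfa2l1 the value was 1.29 ± 0.87. Leaving out kidney replicate 22 moved S100a8 to -3.36, S100a9 to -3.19 and Cxcr2 to -2.29, and these 3 were then called lower, where 11.1% of 10988 tested genes were. In that fit Trem1 was the 1 gene called higher, beside 14.3% of all. Retnlg then stood at -0.95, Stfa2l1 at 0.60 and Csf3r at -0.49, and the median of the 8 at -0.95 beside 0.07.

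**Figure D3:**
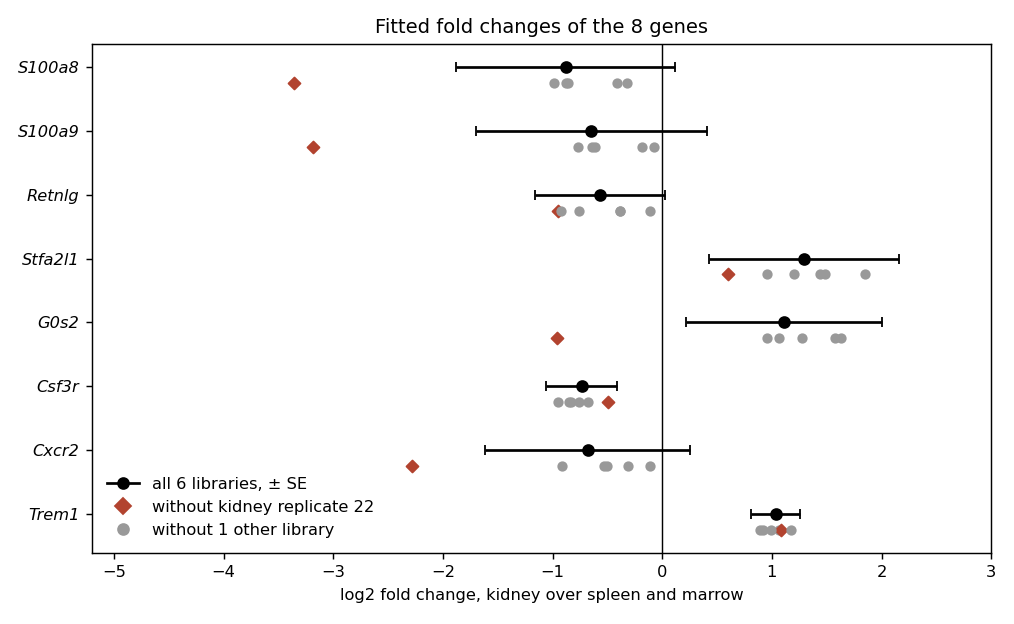
Fitted log2 fold change of each of the 8 genes, kidney over spleen and marrow, from edgeR with all 6 libraries (black, ± SE), without kidney replicate 22 (red diamonds) and without each of the other 5 libraries in turn (grey). Leaving out kidney replicate 22 takes S100a8 from -0.88 to -3.36 and G0s2 from 1.11 to -0.96, while Trem1 stays between 0.89 and 1.17.

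S100A8 and S100A9 act through receptors that other cells and the monocytes themselves carry, and 8 genes of such receptors, co-receptors and an adaptor were tested. Cd14, the co-receptor of TLR4, rose to 780 ± 60.2 CPM in kidney, against 259 ± 42.4 CPM in spleen and marrow (log2 fold change 1.59 ± 0.16, edgeR adjusted p = 0.00109). Cd36, a scavenger receptor reported to take up the pair with its lipid cargo, rose with 16.2, 31.2 and 16.5 CPM in kidney replicates 7, 8 and 22, against 0.574, 1.51 and 1.71 CPM in spleen and marrow (log2 fold change 4.06 ± 0.52, edgeR adjusted p = 0.00279). Emb, whose product embigin is a reported receptor of the pair, fell to 468 ± 60.5 CPM in kidney, against 964 ± 50.9 CPM in spleen and marrow (log2 fold change -1.04 ± 0.14, edgeR adjusted p = 0.00306). Of the 8 tested genes, 2 thus rose and 1 fell, beside 7.83% and 5.9% of all tested genes. These 3 calls passed in all 6 fits that left out a library, and none of the 3 genes stood apart in kidney replicate 22. Tlr4 and Ager, the gene of RAGE, had an edgeR adjusted p of 0.320 and 0.174.

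Of 8 other tested S100 genes, 2 rose and 2 fell, beside the same shares of all tested genes, 7.83% and 5.9%. The 2 that rose, S100a16 and S100g, passed the filter on low counts through the kidney libraries alone. Only a rise could be called for them, so nothing is read from their calls. S100a10, the annexin A2 partner, fell to 1089 ± 63.4 CPM in kidney, against 2033 ± 207 CPM in spleen and marrow (log2 fold change -0.90 ± 0.12, edgeR adjusted p = 0.00395). S100a11 fell at -0.77 ± 0.18 on the log2 scale (edgeR adjusted p = 0.0299), a call that, among fits leaving out a library, was kept only without kidney replicate 22. Its level in kidney replicate 22 was 1.53 times the mean of kidney replicates 7 and 8, where S100a8 was 14.6 times that mean. S100a16 had 6.64, 75.8 and 18.2 CPM in kidney and no count in spleen and marrow, which makes it at least 307-fold higher against a floor of 3 counts over that group (edgeR adjusted p = 0.0140). Kidney replicate 8 gave 600 of its 718 kidney counts, and the bound was 84.2-fold without that library and 494-fold without kidney replicate 7. S100g, the calbindin of kidney tubule and gut, had 23.9, 4.802 and 53.7 CPM in kidney and 1 count in all of spleen and marrow (edgeR adjusted p = 0.00503). Its pooled ratio was 543, with an exact interval from 96.9 to 21485. That ratio was 824 without kidney replicate 8, 495 without kidney replicate 7 and 372 without kidney replicate 22. Both of these calls were lost with limma-voom, and that of S100a16 (adjusted p = 0.0724 there) also without spleen and marrow replicate 2, 24 or 26, at adjusted p up to 0.0626.

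Other genes of the neutrophil lineage were followed to see which moved with the alarmin pair in kidney replicate 22. Of 29 other tested genes of mature neutrophils, 5 rose and 7 fell, beside 7.83% and 5.9% of all tested genes. In kidney replicate 22, 3 of the 29 were at least 4-fold over both other kidney libraries, beside 2.27% of all tested genes. The 3, named after their values were seen, were Cd177, a neutrophil surface protein, Padi4, the histone deiminase of neutrophil extracellular traps, and Pglyrp1, at 4.81, 5.12 and 6.65 times the mean of kidney replicates 7 and 8. Il1b, the cytokine gene, rose to 579.5, 933 and 547 CPM in kidney replicates 7, 8 and 22, against 105, 51.0 and 50.7 CPM in spleen and marrow (log2 fold change 3.32 ± 0.36, edgeR adjusted p = 0.00149). Clec4d, a C-type lectin receptor, and Irg1, the gene of the itaconate-producing enzyme ACOD1, rose with log2 fold changes of 2.08 ± 0.22 and 4.62 ± 0.53 (edgeR adjusted p = 0.00149 and 0.00190). These genes are also expressed by activated monocytes.

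Mmp8, the neutrophil collagenase, and Mcemp1 fell with log2 fold changes of -1.57 ± 0.28 and -1.07 ± 0.19 (edgeR adjusted p = 0.00999 and 0.0100). The call of Mmp8 was lost without spleen and marrow replicate 24 or 26 and that of Mcemp1 without replicate 26, at adjusted p up to 0.0581. In kidney replicate 22 these 5 named genes ran from 0.724 (Il1b) to 1.45 (Mcemp1) times the mean of kidney replicates 7 and 8. The number that fell in the list was 12 without kidney replicate 22, where 1215 of 10988 tested genes (11.1%) fell. It was 4 without kidney replicate 8, where 586 of 10902 tested genes fell. Without spleen and marrow replicates 24 and 26 it was 3 and 2, where 208 of 11284 and 179 of 11256 tested genes fell. The number that rose was 3 without spleen and marrow replicate 2, where 289 of 11248 tested genes rose.

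Granule genes, which neutrophil precursors in marrow transcribe in waves, gave a different picture. Of 12 tested genes of secondary and tertiary granules, 6 were at least 4-fold over both other kidney libraries in kidney replicate 22, beside 2.27% of all tested genes. Camp, the cathelicidin gene, had 60.4, 347 and 5261 CPM in kidney replicates 7, 8 and 22, against 1921, 2792 and 2959 CPM in spleen and marrow replicates 2, 24 and 26. Ngp had 141, 709 and 8146 CPM in kidney, against 2456, 4255 and 4672 CPM in spleen and marrow. Ltf, the lactoferrin gene, had 7.11, 30.3 and 394 CPM in kidney, against 125, 215 and 227 CPM in spleen and marrow. Each of these 3 repeated the order of S100a8 in kidney, lowest in replicate 7 and above every spleen and marrow library in replicate 22. Camp, Ngp and Ltf are named after their values were seen, as are Elane, Mpo and Cebpe.

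By the fit, 2 genes of that list rose, Adam8 and Cd63, and 1 fell, Hp, the haptoglobin gene. Among all tested genes, 7.83% rose and 5.9% fell. Adam8 and Hp, with log2 fold changes of 2.58 ± 0.39 and -1.26 ± 0.16 (edgeR adjusted p = 0.00577 and 0.00263), passed in all 6 fits that left out a library. The call of Cd63 was lost without spleen and marrow replicate 2, 24 or 26, at adjusted p up to 0.0987. Without kidney replicate 22, 7 genes of the list fell, beside 11.1% of all tested genes in that fit.

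Of 6 tested genes of primary granules, made earliest in the lineage, 3 fell, beside 5.9% of all tested genes. In kidney replicate 22, 4 of the 6 were at least 4-fold over both other kidney libraries, beside 2.27% of all tested genes. Elane, the neutrophil elastase gene, had 2.37, 25.6 and 245 CPM in kidney, against 1727, 1078 and 1162 CPM in spleen and marrow. Mpo, the myeloperoxidase gene, had 0.118, 1.14 and 37.3 CPM in kidney, against 357, 222 and 234 CPM in spleen and marrow. Unlike S100a8, both stayed below every spleen and marrow library in kidney replicate 22. Cst7 and Prtn3 fell with log2 fold changes of -4.28 ± 0.44 and -3.81 ± 0.53 (edgeR adjusted p = 0.00132 and 0.00400) and passed in all 6 fits that left out a library. Ctsg fell with -4.36 ± 1.19 (edgeR adjusted p = 0.0485), a call lost in 4 of the 6 with adjusted p up to 0.170. All 6 fell without kidney replicate 22, beside 11.1% of all tested genes in that fit. All 6 also fell with limma-voom, where 838 of 10626 tested genes fell, and on log2(FPKM + 1), where 629 of 10626 did. The same held without a filter, where 651 of 16762 tested genes fell.

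Among 10 tested transcription factors of granulocyte development, Cebpe, which drives the secondary granule genes, had 0.593, 1.52 and 45.8 CPM in kidney replicates 7, 8 and 22, against 19.1, 25.99 and 27.8 CPM in spleen and marrow. It was the 1 gene of that list at least 4-fold over both other kidney libraries in kidney replicate 22, beside 2.27% of all tested genes. Cebpd was the 1 that fell, beside 5.9% of all tested genes (log2 fold change -0.76 ± 0.15, edgeR adjusted p = 0.0160). Its call was lost without spleen and marrow replicate 24 or 26 and on the FPKM scales, at adjusted p up to 0.0994. Without kidney replicate 22, 1 factor rose and 2 fell, beside 14.3% and 11.1% of all tested genes in that fit.

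**Figure D4:**
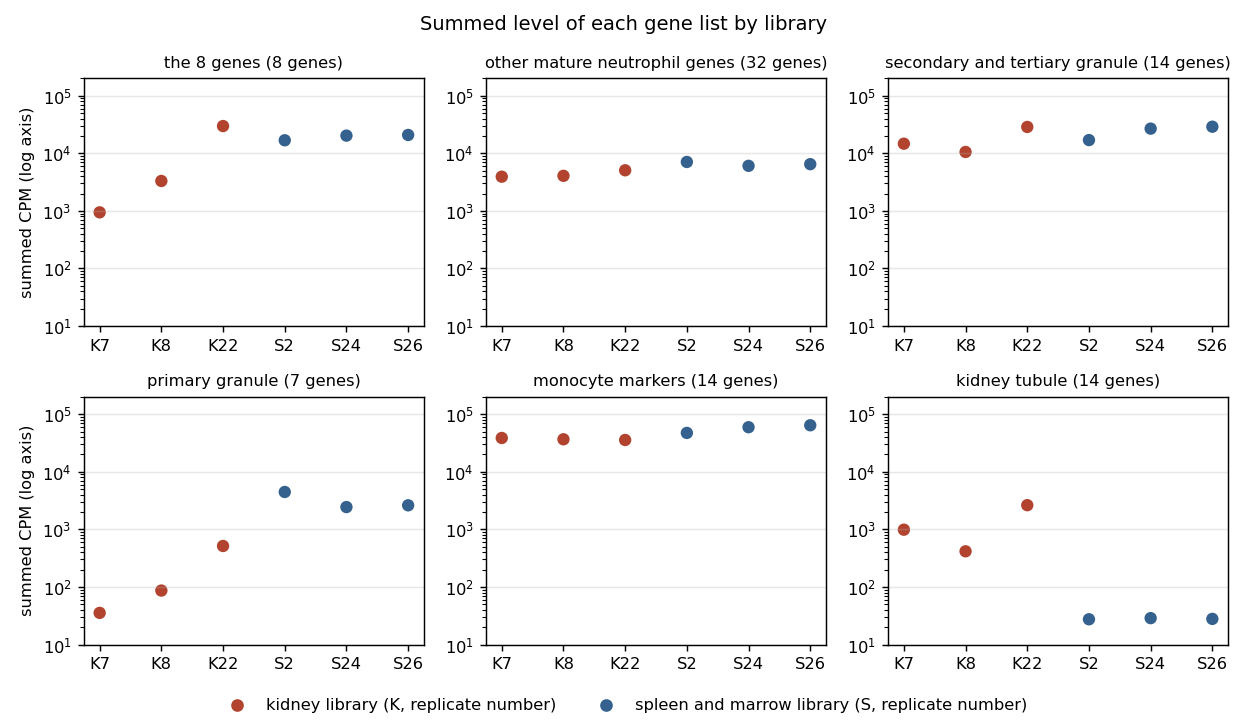
Summed CPM (vertical log axes on 1 common scale) of the 8 genes and of 5 other gene lists in kidney replicates 7, 8 and 22 (K7, K8, K22) and spleen and marrow replicates 2, 24 and 26 (S2, S24, S26). The sum of the 8 genes is 943, 3309 and 29762 CPM in kidney and that of monocyte markers 35734 to 38732 CPM, while the primary granule sum of K22, 515 CPM, stays below the 2442 CPM of the lowest spleen and marrow library.

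Markers of other cells were read beside these values. The 14 monocyte markers summed to 38732, 36762 and 35734 CPM in kidney replicates 7, 8 and 22 and 47386 to 64383 CPM in spleen and marrow. Lyz2 made up most of each sum, at 32061, 30678 and 29441 CPM in kidney and 36591 to 53871 CPM in spleen and marrow. The other 13 markers summed to 6671, 6084 and 6293 CPM in kidney, against 10795, 10049 and 10512 CPM in spleen and marrow, of which Ly6c2 gave 317, 752 and 810.5 CPM in kidney and 5020 to 5860 CPM in spleen and marrow. None of the 14 was at least 4-fold over both other kidney libraries in kidney replicate 22, as 2.27% of all tested genes were. The 14 ran there from 0.468 (Klf4) to 1.52 (Ly6c2) times the mean of kidney replicates 7 and 8. The fit called 6 of them higher and 2 lower, beside 7.83% and 5.9% of all tested genes. These counts became 6 and 1 when kidney replicate 8 or 22 was left out. Of all tested genes, 929 were then higher and 586 lower without kidney replicate 8, and 1569 and 1215 without kidney replicate 22. They became 5 and 1 without spleen and marrow replicate 24 or 26, where 286 and 208, or 260 and 179, of all tested genes were called. With DESeq2 or limma-voom 6 were higher and 4 lower, beside 1164 and 995, or 737 and 838, of 10626 tested genes. Cx3cr1 and Csf1r rose with log2 fold changes of 2.45 ± 0.21 and 1.67 ± 0.20, and Ly6c2 fell with one of -3.11 ± 0.34 (edgeR adjusted p = 0.000761, 0.00194 and 0.00149).

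The 32 other mature neutrophil genes with a row summed to 3929, 4067 and 5073 CPM in kidney, against 6065 to 7076 CPM in spleen and marrow, with Cxcr1 at 0 throughout and Ly6g not analysed here. Kidney tubule genes were highest in kidney replicate 22: 14 of them summed to 988, 416 and 2634 CPM in kidney replicates 7, 8 and 22, against 27.4 to 28.7 CPM in spleen and marrow. Umod, a defining tubule gene, had 8.18, 3.16 and 40.5 CPM in kidney and no count in spleen and marrow. Of the 14, the number at 0 was 0, 2 and 2 in kidney, against 8, 6 and 6 in spleen and marrow. Endothelial genes summed to 34.2, 977 and 22.02 CPM in kidney, against 8.07 to 13.0 CPM in spleen and marrow, so they were high in kidney replicate 8 and not in kidney replicate 22. Lymphocyte genes stayed at or below 86.0 CPM in kidney, against 144 CPM in spleen and marrow, and the 10 erythroid genes summed to at most 11.2 and 9.88 CPM, with all 4 hemoglobin genes among them listed at 0 in all 6 libraries. The part of any of these cells, and of the low depth of kidney replicate 22, in the values of the 8 genes was not tested.

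A further 10 genes were sought whose profile over the 6 libraries was nearest to the mean profile of the 8, among 5452 genes whose log2 CPM averaged 4 or more. The nearest were Bphl, Aaas, Cep19, Cd24a and Tspan5, with root mean square differences of 0.262, 0.281, 0.303, 0.337 and 0.339 log2 units, followed by Haao, Ckap4, Lta4h, Csrp2 and Chchd6 at 0.370 to 0.387. Cd24a, a surface glycoprotein gene, had 23.0, 61.0 and 85.7 CPM in kidney replicates 7, 8 and 22, against 70.2, 63.1 and 67.4 CPM in spleen and marrow. Lta4h, the gene of leukotriene A4 hydrolase, had 35.4, 42.2 and 126 CPM in kidney, against 110, 115 and 122 CPM in spleen and marrow. For S100a8 alone, chosen after values were seen, the nearest gene was S100a9, then Ltf at 0.303 and Lcn2 at 0.352. For S100a9 they were S100a8, then Ltf at 0.222 and Ngp at 0.234.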

How the data were processed

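RNA was sequenced from 3 kidney and 3 spleen and marrow libraries. Per the labels' protocols, cDNA was made with SMART-Seq v4 from 2 ng of RNA and sheared to 150 bp, a chemistry that does not mark strand, so overlapping antisense transcripts cannot be told apart. The authors deposited raw counts per gene symbol (24047 rows, 92 spike-in rows without a count, 27 symbols turned into dates) and FPKM values (24043 rows) scaled by the authors for depth and transcript length. The submitters' processing notes name the build mm9 and the tools STAR 2.5, Cufflinks 2.2.1 and bcl2fastq 2.18; the program that assigned reads to genes, and its annotation, is one point not given in the sources used here. FPKM lists Lyz2 at 0 in 1 library where its count is high, so FPKM served only for levels between genes and as an alternative. Promoter sequences and neighbours come from RefSeq, GRCm38.p6, matched by symbol for 8 of 8 genes, and no coordinate was converted between builds.

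The count model was edgeR 4.0.16 under R 4.3.3 (TMM, filterByExpr with a minimum count of 10, glmQLFit and glmQLFTest, two-sided), run over 10626 genes, with Benjamini-Hochberg adjusted p under 0.05 as a call. CPM uses TMM-adjusted totals. The fit was tested on simulated data with known changes. Alternatives were DESeq2 1.42.0, its size factors, library size scaling, no filter, limma-voom and limma-trend (limma 3.58.1) on log2(FPKM + 1) or log2(FPKM + 0.1), leaving out each library, and summing spleen and marrow replicates 24 and 26. Those libraries differed least (chi-square per degree of freedom 2.86, against 22.2 to 59.7 for other pairs within a group) but beyond sampling noise, and counted as 2. Intervals are exact binomial or Wilson at 95%, computed with Python 3.11.15 and scipy 1.17.1; figures used matplotlib 3.10.9.

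The 8 genes and all lists were chosen with earlier results of these data known. Named genes are the 8, in each list up to 3 calls a direction, ranked by p, or its 2 most abundant genes where none passed, and the 10 nearest profiles; others, such as Tyrobp, Pnpla2, Tlr4, Ager, Retn, Csf3 and Umod, were named for their known role after their values were seen. Of the genes the rule took, 1 is not reported here. Windows of 50 bases shared between transcripts were counted in the GENCODE M21 transcripts.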

Additional observations from a re-analysis of the deposited data

How the results depend on the processing

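Across all tested genes, 832 were higher and 627 lower. These counts were 468 higher on log2(FPKM + 1), 543 higher on log2(FPKM + 0.1), 995 lower with DESeq2, and 299 higher and 201 lower with spleen and marrow replicates 24 and 26 summed. Leaving out 1 library gave 260 to 1569 higher and 179 to 1215 lower, the most without kidney replicate 22 and the fewest without spleen and marrow replicate 26. Calls in kidney were 57.0% higher in the reported fit, and 46.8% with limma-voom, 42.7% on log2(FPKM + 1) and 48.1% on log2(FPKM + 0.1). The median log2 fold change moved by -0.11 and -0.19 on these FPKM scales and by 0.14 without a filter.

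For the 8 genes, 100 of 112 values under 14 alternatives kept direction and side of the threshold. G0s2 reversed to -0.96 without kidney replicate 22 and to -0.26 with limma-voom, and ran up to 1.63 with another library left out. Trem1 lost its call in 7, and S100a8, S100a9 and Cxcr2 gained one without kidney replicate 22. Of 448 values for other named genes, 78 lost the call and 2 reversed, Lyz2 at 4.18 and 5.28 on log2(FPKM + 1) and log2(FPKM + 0.1), where it is listed at 0 in 1 library. Of 24 ratios of kidney replicate 22 to the mean of kidney replicates 7 and 8, 10 moved beyond their interval and 0 changed direction. The cause was not tested. No paired analysis was possible because the groups share no replicate number. Depth limits Cxcr2 and Stfa2l1 most, with as few as 3 and 8 counts.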

Other observations

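Of 13 genes of eosinophils, basophils and mast cells, 6 were tested, and 8 of the 13 had no count in kidney replicate 22. Among the 6, 4 were at least 4-fold over both other kidney libraries there, beside 2.27% of all tested genes. Prg2, the eosinophil major basic protein gene, had no count in kidney replicates 7 and 8 and 167 CPM in kidney replicate 22, against 163, 1478 and 1504 CPM in spleen and marrow replicates 2, 24 and 26. Prss34, a basophil protease gene, had 0, 0 and 13.8 CPM in kidney replicates 7, 8 and 22, against 49.0, 106 and 106 CPM in spleen and marrow. The 13 genes of the list summed to 1.19, 1.39 and 203 CPM in kidney and 270, 1732 and 1765 CPM in spleen and marrow, with Prg2 giving most of the sum in kidney replicate 22, and Epx, the eosinophil peroxidase gene, was at 0 in all 3 kidney libraries. Of the 6 tested, 3 fell, beside 5.9% of all tested genes. Mcpt8 had 0.118, 0.253 and 5.29 CPM in kidney, against 41.8, 72.5 and 74.7 CPM in spleen and marrow (log2 fold change -5.55 ± 0.99, edgeR adjusted p = 0.0107), and its call was lost when spleen and marrow replicate 2, 24 or 26 was left out, at adjusted p up to 0.0638. Fcer1a and Cpa3, with 1 and 0 counts in all of kidney, had an edgeR adjusted p of 0.00485 and 0.00647. Both passed the filter on low counts through the spleen and marrow libraries alone. Only a fall could be called for them, so nothing is read from their calls. Without kidney replicate 22, 7 genes of the list passed the filter and 7 fell, beside 11.1% of all tested genes in that fit. Without spleen and marrow replicate 24, 2 of 6 tested genes fell, where 208 of 11284 of all did. Without replicate 26 it was 2 of 7, where 179 of 11256 of all tested genes fell. These genes were named after their values were seen.

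The nearest profiles of other genes among the 8, as a description over 6 libraries and 5452 genes, were not those of the alarmin pair. For Csf3r the nearest was Arid3a, with 18.4, 14.7 and 7.34 CPM in kidney replicates 7, 8 and 22, against 21.8, 24.8 and 22.3 CPM in spleen and marrow, at a root mean square difference of 0.0757 log2 units. For Trem1 it was Ap1b1, with 24.6, 19.7 and 23.2 CPM in kidney, against 13.3, 10.9 and 9.54 CPM in spleen and marrow, at 0.157. For Cxcr2 it was Psat1, with 4.50, 10.7 and 37.6 CPM in kidney, against 42.3, 30.1 and 26.05 CPM in spleen and marrow, at 0.285. For G0s2, the lipase inhibitor, it was Fbxl14, with 7.58, 9.73 and 44.3 CPM in kidney, against 10.9, 12.4 and 14.6 CPM in spleen and marrow, at 0.352.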
